A study of Homo sapiens with 4 samples.

Results

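The genes described here are 40 human genes of cell proliferation, listed by name in 3 groups by role and measured in THP-1 cells, an established line grown from an acute monocytic leukaemia. The groups are 15 genes of DNA replication and S phase, 20 genes of mitosis and 5 regulators of entry into the cycle. Each gene was found on the array, as 40 of the 19775 genes that a probe set names alone. A probe set is a group of short probes that read 1 transcript, and where a gene had several, the one with the highest mean stood for it. The study kept Pam3CSK4-treated THP-1 cells with platelet-like particles for 24 h or for 12 h, and added 1 control with Pam3CSK4 alone and 1 with resting, untreated cells. Pam3CSK4, a synthetic bacterial-type lipopeptide sensed by TLR1 together with TLR2, was shared by all groups except the resting cells. Each of the 4 conditions was 1 array, so no difference below has a spread between cultures to be set against, and no test was possible. How long the control cells were kept in Pam3CSK4, and which cells shed the particles, are not given in the sources used here. All arrays come from 1 cell line, whose proliferation is that of a leukaemia and not of blood monocytes.

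A dividing cell first copies its DNA and then separates the copies. MCM proteins form the helicase that opens DNA, PCNA is the clamp that holds the polymerases, and E2F transcription factors switch on these genes once cyclins and their kinases (CDKs) have relieved the brake set by the RB protein. Cyclin B and CDK1 then drive mitosis, in which spindle motors, kinetochore proteins and the checkpoint kinases act. Transcripts of both waves are known to be low in cells that have left the cycle, and CDK inhibitors such as p21 and p27, the products of CDKN1A and CDKN1B, can hold a cell in G1. THP-1 cells divide in culture and can slow down as they mature toward macrophages.

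The values are log2 signals made by RMA, a method that corrects background and forces the probe signals of all arrays to a common distribution. A change in the total RNA of a cell can therefore not be seen. The values summarised per probe set can still differ a little in spread between arrays. A signal of one probe set cannot be set against that of another, and differences below are always between arrays for the same probe set. Of the 40 genes, all 40 passed a filter on low values (any array reaching 6.19, which is the median over all values), as did 13410 of 19775 genes in all. CCND2 passed through the co-culture arrays alone. Control probe sets at the 3' end exceeded those at the 5' end, by a gap that widens as RNA quality falls. It was widest on the resting array. For GAPDH this gap was 0.70 log2 at 24 h, 0.92 at 12 h, 0.59 with Pam3CSK4 and 2.16 in resting cells. For ACTB the same gap was 2.90 at 24 h, 3.17 at 12 h, 2.91 with Pam3CSK4 and 3.41 in resting cells, so the resting array stood less apart. ACTB, a common reference gene, had 14.68 at 24 h, 14.69 at 12 h, 14.79 with Pam3CSK4 and 14.67 in resting cells. GAPDH had 13.98 at 24 h, 13.93 at 12 h, 14.12 with Pam3CSK4 and 13.80 in resting cells. Of 15 monocyte markers, 13 had a probe set and 12 stood above the filter on each array, as the labelled monocytic type would. These markers differed between arrays: 11 of 12 were higher with Pam3CSK4 than in resting cells, beside 5656 of all 13410 genes. By at least 1.5-fold 8 of 12 were higher, beside 7.58% of all genes, and the marker median was 0.86. FCGR2A was the 1 marker below 0, at -0.42. CYBB differed by 4.61, CD14 by 2.40 and ITGAM by 2.20 there, and at 12 h against Pam3CSK4 by 0.82, -1.18 and -0.66. Their part in the differences of the cell cycle genes was not tested. Of 17 megakaryocyte and platelet markers, 15 had a probe set and from 8 to 10 stood above the filter per array, none above 7.94 log2, while PF4 and PPBP, which define platelets, were under it throughout. In RNA of a whole culture, fewer cells of a kind and less RNA per cell cannot be told apart.

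Transcripts of dividing cells were present on all 4 arrays. Over these arrays 39 of 40 genes stayed within 1 log2, as did 89.8% of all 13410 genes. On the leading probe sets, the largest range among the 20 mitotic genes was 0.69 log2, for TOP2A, which untangles chromosomes. Another TOP2A probe set varied less, with 11.56 at 24 h, 11.31 at 12 h, 11.51 with Pam3CSK4 and 11.56 in resting cells. Among the 15 replication genes the largest range was 0.54 log2, for MCM5. The median range was 0.33 for replication genes, 0.26 for mitotic genes and 0.35 for all 13410 genes. The exception was CDKN1A, with a range of 1.38. MKI67, whose protein Ki-67 is the usual stain for cycling cells, had 9.91 at 24 h, 9.99 at 12 h, 9.95 with Pam3CSK4 and 9.87 in resting cells. On the leading probe sets NUSAP1, a spindle microtubule protein, varied the least, with 12.81 at 24 h, 12.74 at 12 h, 12.75 with Pam3CSK4 and 12.74 in resting cells. Its other probe set varied more, with 9.85 at 24 h, 9.68 at 12 h, 9.72 with Pam3CSK4 and 10.14 in resting cells.

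**Figure D1:**
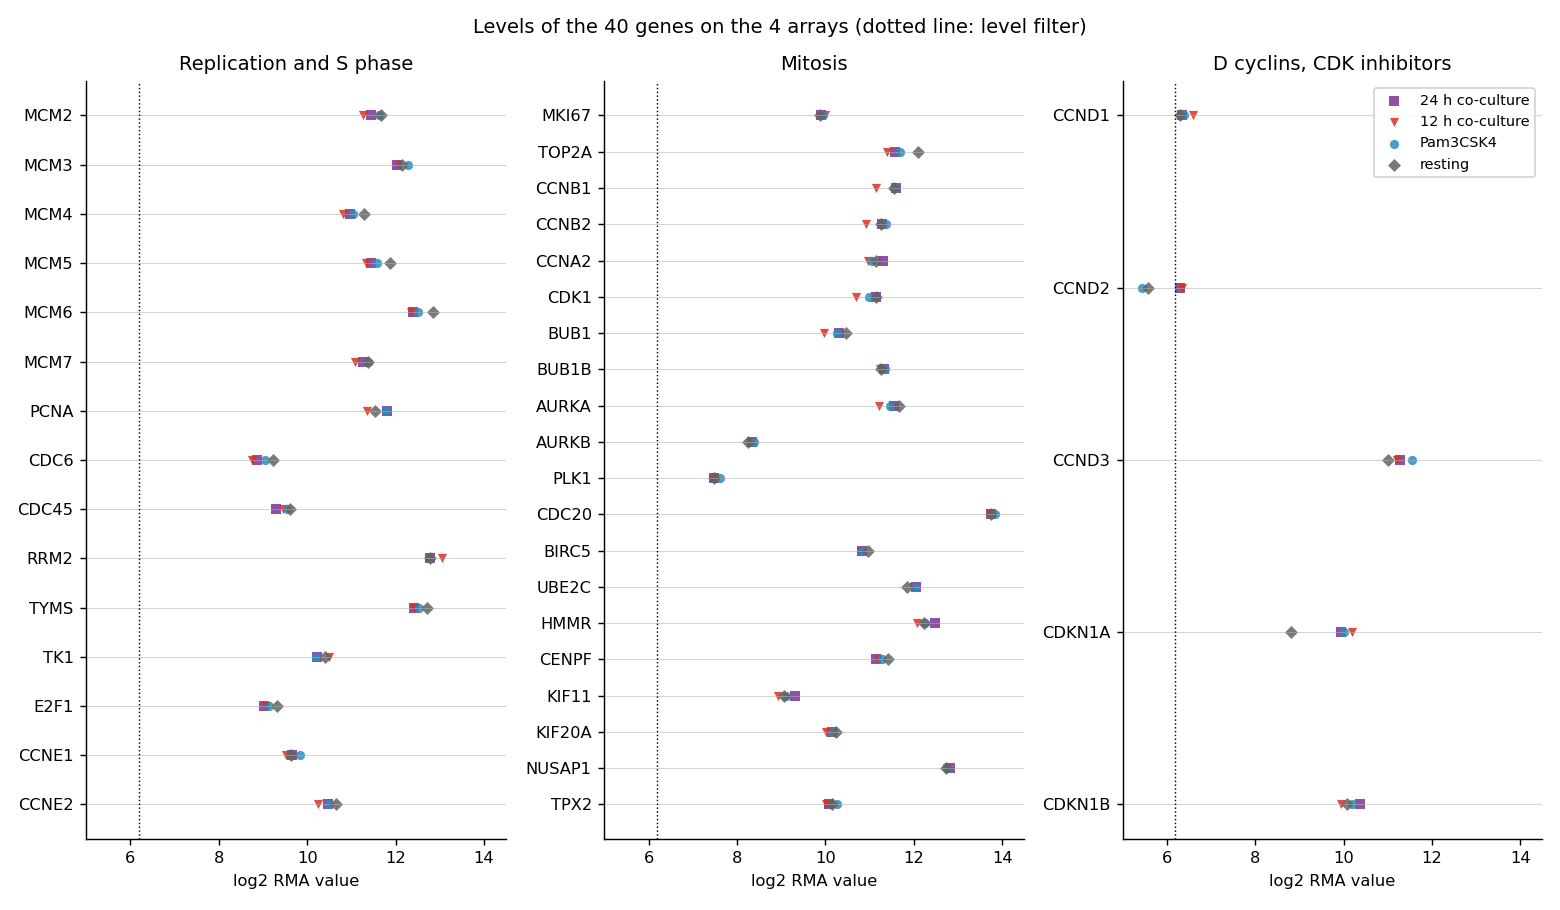
Log2 RMA values of the 40 genes, 1 row per gene, on the arrays of 24 h co-culture (squares), 12 h co-culture (triangles), Pam3CSK4 alone (circles) and resting cells (diamonds), with the level filter of 6.19 as a dotted line. In most rows the 4 marks lie close together, and the widest row is that of CDKN1A, whose resting value stands apart.

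The array of cells with Pam3CSK4 alone was first set against that of resting cells. CDKN1A was at least 2-fold higher with Pam3CSK4, and no other of the 40 genes differed as much in either direction. Over all genes tested, 4.14% were higher by at least 2-fold and 1.71% lower, so 1 of 40 higher and 0 of 40 lower were no excess over those shares. CDKN1A had 10.01 log2 with Pam3CSK4, against 8.81 in resting cells, a difference of 1.19, or 2.29-fold. The co-culture arrays, at 9.94 at 24 h and 10.19 at 12 h, were close to the Pam3CSK4 array, and the resting array alone was low. This gene has 1 probe set, of a kind (suffix _s_at) that can bind related transcripts, so there was no other reading of it.

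The D cyclins, which activate the kinases CDK4 and CDK6 early in the cycle, went separate ways. CCND3 had 11.55 with Pam3CSK4, against 11.00 in resting cells, a difference of 0.55, or 1.46-fold, which was just under 1.5-fold. Its other probe set, close to the filter, differed by -0.10. CCND1 had 6.39 with Pam3CSK4 and 6.30 in resting cells, both near the filter. CCND2 had 5.44 with Pam3CSK4 and 5.57 in resting cells, both under it. CDKN1B differed by 0.11, with 10.19 with Pam3CSK4 and 10.08 in resting cells. With 1.5-fold as the threshold, CDKN1A remained the only one of the 40, beside 7.58% of all genes higher and 5.89% lower.

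**Figure D2:**
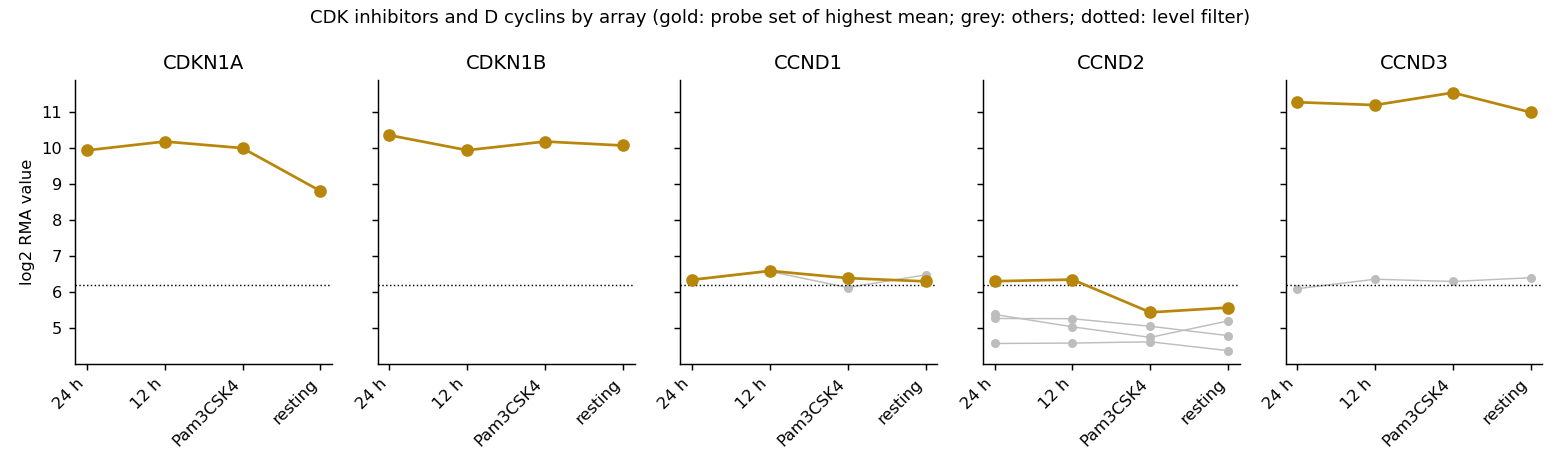
Log2 RMA values of the CDK inhibitor genes CDKN1A and CDKN1B and the D cyclin genes, by array, with the probe set of highest mean in gold, the others in grey and the level filter dotted. CDKN1A is low on the resting array alone, and the gold CCND2 probe set is above the filter on both co-culture arrays and under it on the others.

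Replication genes were mostly a little lower with Pam3CSK4: 11 of 15 were below 0, beside 57.7% of all genes and 53.3% of the genes with a mean level of at least 10. With cyclic loess, an added scaling, 10 of 15 were below 0, beside 51.7% of all genes under that scaling. Their median difference was -0.15, against -0.05 for all genes. With the mean over each gene's probe sets it was -0.07, with 10 of 15 below 0. MCM6, a helicase subunit, had 12.51 with Pam3CSK4, against 12.84 in resting cells, and MCM5 had 11.59, against 11.87. PCNA was among the 4 genes on the other side, with 11.78 with Pam3CSK4 and 11.54 in resting cells. In 10 of the 15 replication genes the resting array held the highest value of the 4, as it did for 44.3% of all genes. E2F1 differed by -0.16, CDC6, which loads the helicase, by -0.19, and CDC45, which activates it, by -0.08. Among genes that supply nucleotides, TYMS (thymidylate synthase) differed by -0.18, TK1 (thymidine kinase) by -0.22 and RRM2 (ribonucleotide reductase) by 0.01. The cyclin E genes, which act at the start of S phase, differed by 0.21 for CCNE1 and -0.15 for CCNE2.

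Mitotic genes were balanced in this comparison, with 9 of 20 below 0 (8 with cyclic loess) and a median of 0.02. TOP2A had 11.68 with Pam3CSK4 and 12.09 in resting cells on its leading probe set, the largest difference of the group at -0.41. Another TOP2A probe set of similar level differed by only -0.05, with 11.51 with Pam3CSK4 and 11.56 in resting cells. UBE2C, which ubiquitinates mitotic cyclins, was at the other end with 0.18. The 40 genes have 73 probe sets above the filter, and in 12 of the 24 genes with several, the signs of this comparison were mixed. The widest was CDK1, the kinase of mitosis. Its leading probe set had 10.98 with Pam3CSK4 and 11.14 in resting cells. The others had 9.45 and 9.82 with Pam3CSK4, against 8.49 and 8.99 in resting cells. The difference of CDK1 was thus -0.16, 0.96 or 0.83, depending on the probe set. MKI67 ranged from 0.08 to 0.50 over its 4 probe sets, CCNE2 from -0.15 to 0.64 and TYMS from -0.18 to 0.37. The part of the wider GAPDH gap of the resting array in these differences was not tested.

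**Figure D3:**
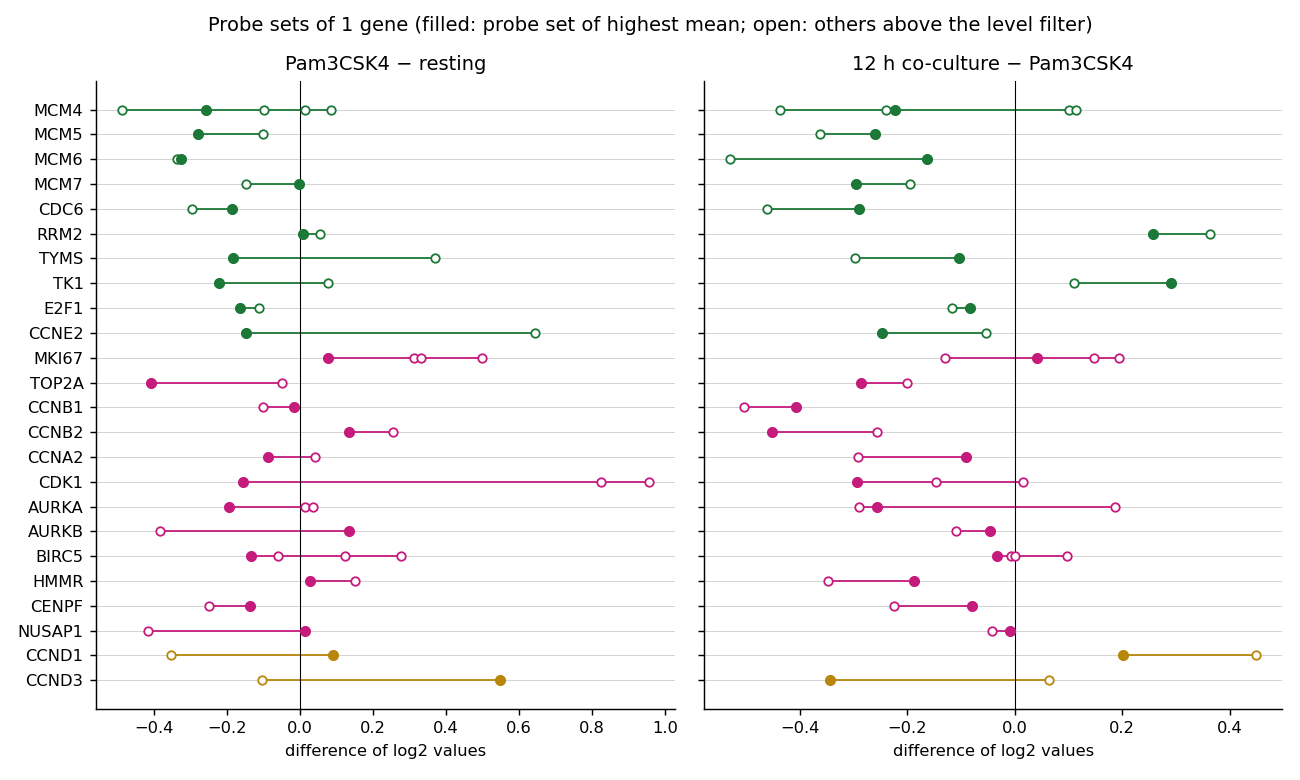
Differences of log2 values for each probe set above the level filter of the 24 genes with several, for Pam3CSK4 minus resting (left) and 12 h co-culture minus Pam3CSK4 (right), with the probe set of highest mean filled. Lines that cross 0 have mixed signs, in 12 of 24 genes on the left and 6 of 24 on the right, and CDK1 spans the widest range on the left.

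Other genes of the pathway were counted from lists chosen by role. Of 45 further replication genes 44 were measured, and 36 of them were below 0, beside 57.7% of all genes, with a median of -0.16. At 1.5-fold, 7.58% of all genes were higher and 5.89% lower, against which the counts of the further lists are given. POLD2, a subunit of DNA polymerase delta, was the only one at least 1.5-fold lower, with 9.91 with Pam3CSK4 and 10.52 in resting cells. None of the 51 further mitotic genes differed by 1.5-fold, and their median was -0.03. Among 23 measured of 27 other CDKs, cyclins and regulators, CDC25B, a phosphatase that activates CDK1, was higher at 9.77 with Pam3CSK4, against 8.75 in resting cells. CCNA1, a cyclin A known from germ cells and myeloid leukaemia, was lower at 6.91, against 8.47. SKP2, which targets p27 for destruction, had 11.02 with Pam3CSK4 and 11.69 in resting cells on its leading probe set and differed by -0.67 to -0.05 over its probe sets. In the E2F and RB list, 23 of 24 measured, MXD1 was higher at 7.35 with Pam3CSK4, against 6.47 in resting cells, and MXI1 lower at 9.29, against 10.22. Both encode partners of MAX that oppose MYC. Of 13 measured of 17 further p53 target genes 1 was at least 1.5-fold higher, the death receptor gene TNFRSF10B with 9.95, against 8.55, and 0 were lower.

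**Figure D4:**
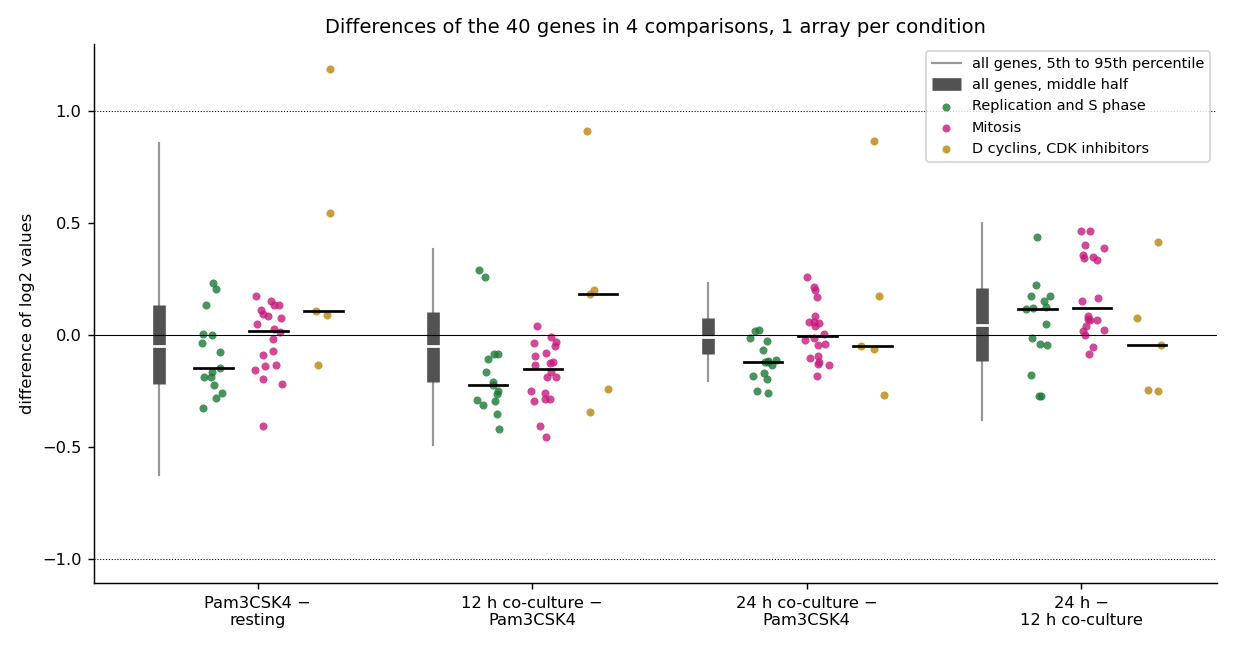
Differences of log2 values in the 4 comparisons for the 15 replication genes, the 20 mitotic genes and the 5 D cyclins and CDK inhibitors, with their medians as black bars, beside all 13410 genes (thick bars, 25th to 75th percentile; thin bars, 5th to 95th percentile). Dotted lines mark 2-fold, which 1 point passes, CDKN1A in the comparison of Pam3CSK4 with resting cells; cyclic loess brings the mitotic median of 24 h minus 12 h near 0.

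Cells kept 12 h with the particles were then set against Pam3CSK4 alone, which shares the Pam3CSK4 array with the comparison before. None of the 40 genes was at least 2-fold different, beside 0.41% of all genes higher and 0.35% lower. Small differences ran mostly one way: 19 of 20 mitotic genes and 13 of 15 replication genes were below 0 at 12 h (13 of 20 and 10 of 15 with cyclic loess, beside 49.9% of all genes under that scaling). Among all genes 58.7% were below 0, and among the 3305 genes with a mean level of at least 10 log2, where 29 of the 40 lie, 69.3% were. The median was -0.15 for mitotic and -0.22 for replication genes, against -0.05 for all genes and -0.10 for genes at that level. The values of the 12 h array spread less than those of the others, with an SD of 2.32 over all probe sets, against 2.35 to 2.38. Genes of high level were lower on it as a body, as the plot by level shows; the cause was not tested. Relative to the median of genes at that level, the members' medians were -0.05 and -0.12, and with cyclic loess -0.07 and -0.11.

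**Figure D5:**
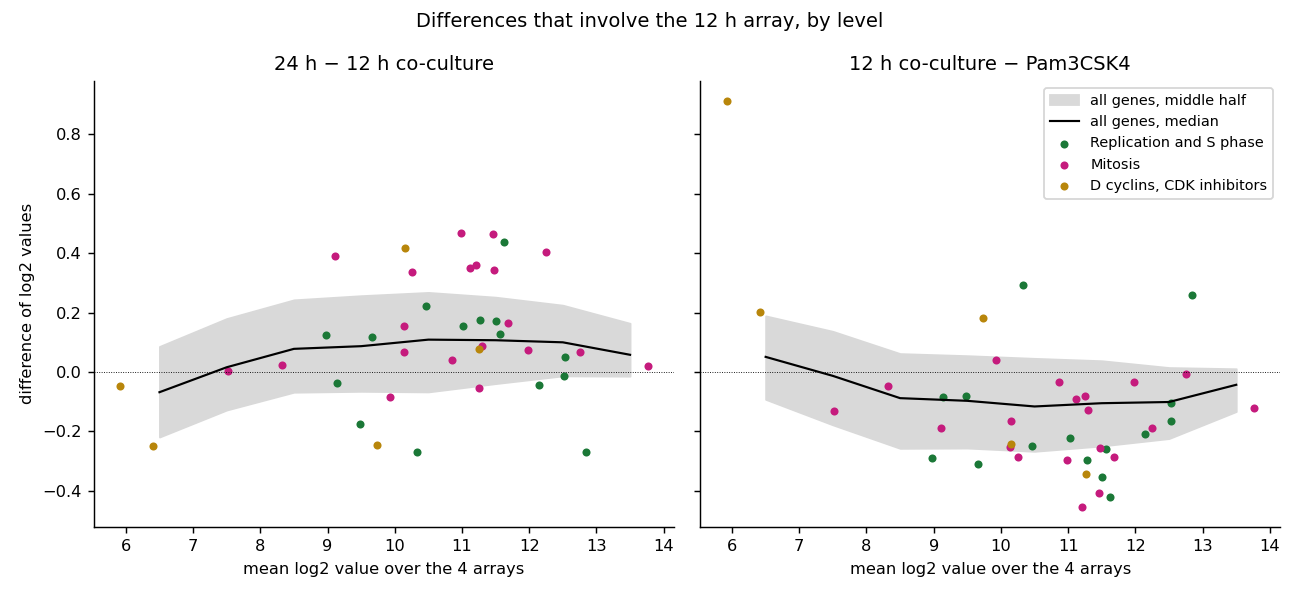
Differences of log2 values against the mean log2 value of each gene for 24 h minus 12 h (left) and 12 h minus Pam3CSK4 (right), with the median of all genes as a line and their range from the 25th to the 75th percentile in grey. The line lies away from 0 at levels of 8 and above, so many member points that are away from 0 are inside the grey band. Outside it in both panels are 10 genes (AURKA, BUB1, CCNB1, CCNB2, CCND1, CDK1, CDKN1A, PCNA, RRM2 and TK1). By its definition the band leaves out a large part of all genes, and both panels use the 12 h array. The share of all genes outside it in both was not counted, so these 10 are no excess shown.

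Cyclin B transcripts had the lowest differences of the mitotic genes. CCNB2 had 10.93 log2 at 12 h, against 11.38 with Pam3CSK4, and 11.29 at 24 h and 11.25 in resting cells. Its sister gene CCNB1 had 11.14 at 12 h, against 11.55 with Pam3CSK4, and 11.61 at 24 h and 11.56 in resting cells. For both genes the 12 h array was the low one and the other arrays lay within 0.13 and 0.06 log2 of each other. The differences at 12 h were -0.45 and -0.41, and -0.34 and -0.30 with cyclic loess. Other probe sets gave -0.26 for CCNB2 and -0.50 for CCNB1. CDK1, the kinase that cyclin B activates, differed by -0.29 on its leading probe set and by up to 0.01 on another.

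Further down the mitotic list, TOP2A differed by -0.29 and the checkpoint kinase gene BUB1 by -0.28. AURKA, a kinase of spindle poles, differed by -0.26, and TPX2, which activates it, by -0.25. Other probe sets of AURKA gave -0.29 and, near the filter, 0.19. KIF11, the motor that separates spindle poles, stood at -0.19, HMMR, a spindle and hyaluronan-binding protein, at -0.19 and KIF20A, a motor of cell division, at -0.17. Nearer to 0 were PLK1 (-0.13), BUB1B (-0.13) and CDC20, which starts anaphase (-0.12). CCNA2 (-0.09), CENPF of the kinetochore (-0.08), AURKB (-0.05) and BIRC5, its partner survivin (-0.03), were close to 0, as were UBE2C (-0.03) and NUSAP1 (-0.01). These last 6 genes were above 0 with cyclic loess. MKI67, at 0.04, was the 1 mitotic gene above 0.

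PCNA led the replication genes, with 11.36 at 12 h, against 11.78 with Pam3CSK4, and 11.80 at 24 h and 11.54 in resting cells. Its difference of -0.42, -0.31 with cyclic loess, came from its only probe set. All MCM genes were lower at 12 h, also with cyclic loess, with differences of -0.35 for MCM2, -0.30 for MCM7, -0.26 for MCM5, -0.22 for MCM4, -0.21 for MCM3 and -0.16 for MCM6. MCM4 had mixed signs over its 5 probe sets, from -0.44 to 0.11. CCNE1 differed by -0.31, CDC6 by -0.29 and CCNE2 by -0.25. TYMS (-0.10), E2F1 (-0.08) and CDC45 (-0.08) were close to 0, and with cyclic loess they were at 0.0008, 0.0037 and 0.01.

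RRM2 and TK1, both of nucleotide supply, stood on the other side. RRM2 had 13.05 at 12 h, against 12.79 with Pam3CSK4, and 12.77 at 24 h and 12.78 in resting cells, so the 12 h array was the high one and the other 3 lay within 0.01 log2. TK1 had 10.48 at 12 h, against 10.19 with Pam3CSK4, with 10.21 at 24 h and 10.41 in resting cells. The differences were 0.26 for RRM2 and 0.29 for TK1, and 0.36 and 0.40 with cyclic loess. The other probe set of RRM2 gave 0.36 and that of TK1 0.11.

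The promoters of the genes with the lowest 12 h differences in each group, and of RRM2 and TK1 with the opposite sign, are shown because cell cycle genes are known to share short promoter elements. E2F factors bind at replication genes, while mitotic genes often carry a CHR element near the start site together with CCAAT boxes bound by NF-Y. The sequences are RefSeq windows of 300 bases (250 before to 50 after the annotated start, build GRCh38.p14), read on the gene's strand. Capitals mark every match, on either strand, to the E2F words TTTGGCG, with its variants TTTCCCG and also TTTCGCG, to the CHR words TTTGAA and also TTTAAA, and to the NF-Y box CCAAT, of which TTTAAA is its own reverse complement and also resembles a TATA box. For genes with several windows the first in the table is shown.
PCNA, chr20:5126573-5126872, minus strand: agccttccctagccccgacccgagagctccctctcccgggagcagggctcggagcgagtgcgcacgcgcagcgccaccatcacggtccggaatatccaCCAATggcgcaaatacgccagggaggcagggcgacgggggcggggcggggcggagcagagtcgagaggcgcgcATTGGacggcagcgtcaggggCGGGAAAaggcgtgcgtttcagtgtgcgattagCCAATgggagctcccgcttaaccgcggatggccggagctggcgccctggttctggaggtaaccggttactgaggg
MCM2, chr3:127598161-127598460, plus strand: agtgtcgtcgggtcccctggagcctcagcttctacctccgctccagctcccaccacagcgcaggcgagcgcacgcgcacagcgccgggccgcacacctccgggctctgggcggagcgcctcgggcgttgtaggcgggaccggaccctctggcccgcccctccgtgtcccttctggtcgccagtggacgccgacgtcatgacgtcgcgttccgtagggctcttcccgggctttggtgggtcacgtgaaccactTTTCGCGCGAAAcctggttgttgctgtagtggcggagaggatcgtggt
CCNB2, chr15:59104896-59105195, plus strand: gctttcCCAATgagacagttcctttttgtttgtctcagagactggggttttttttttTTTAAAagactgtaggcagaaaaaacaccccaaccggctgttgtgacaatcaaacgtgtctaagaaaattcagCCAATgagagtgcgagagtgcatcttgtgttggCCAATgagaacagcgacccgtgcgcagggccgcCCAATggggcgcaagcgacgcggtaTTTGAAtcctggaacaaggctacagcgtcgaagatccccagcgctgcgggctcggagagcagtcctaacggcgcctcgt
CCNB1, chr5:69166900-69167199, plus strand: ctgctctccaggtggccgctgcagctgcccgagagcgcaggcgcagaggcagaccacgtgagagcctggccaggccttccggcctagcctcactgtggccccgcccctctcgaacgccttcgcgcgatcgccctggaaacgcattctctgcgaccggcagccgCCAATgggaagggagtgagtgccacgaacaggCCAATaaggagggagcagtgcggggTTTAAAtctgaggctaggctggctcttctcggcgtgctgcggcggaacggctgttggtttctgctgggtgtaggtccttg
RRM2, chr2:10122489-10122788, plus strand: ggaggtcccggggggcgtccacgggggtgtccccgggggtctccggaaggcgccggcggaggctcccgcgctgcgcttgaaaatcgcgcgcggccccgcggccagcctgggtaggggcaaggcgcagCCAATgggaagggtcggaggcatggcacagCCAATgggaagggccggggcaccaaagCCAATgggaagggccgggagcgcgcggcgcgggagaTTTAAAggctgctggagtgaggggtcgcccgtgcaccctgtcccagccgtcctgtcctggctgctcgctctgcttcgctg
TK1, chr17:78187155-78187454, minus strand: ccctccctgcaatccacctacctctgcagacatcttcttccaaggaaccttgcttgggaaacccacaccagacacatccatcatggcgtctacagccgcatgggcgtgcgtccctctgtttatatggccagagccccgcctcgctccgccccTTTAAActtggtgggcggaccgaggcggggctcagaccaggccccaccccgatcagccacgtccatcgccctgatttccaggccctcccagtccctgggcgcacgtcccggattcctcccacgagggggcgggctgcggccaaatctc

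In these windows PCNA and MCM2 held an E2F word, which in MCM2 was a pair of overlapping matches just after the start. CCNB2 had a TTTGAA word 29 bases before the start, with a TTTAAA word at 193 bases and 4 CCAAT boxes, and CCNB1 had a TTTAAA word at 30 bases and 2 CCAAT boxes. RRM2 had its TTTAAA word at 30 bases like CCNB1, with 3 CCAAT boxes, although its 12 h difference had the opposite sign, and TK1 had a TTTAAA word at 98 bases and no match to the others. Of the 40 genes 31 had a window. E2F words were in 10 of 19 windows of replication genes, 5 of 18 of mitotic genes and 7.2% of all 35116 windows. CHR words were in 5 of 19 windows of replication genes, 14 of 18 of mitotic genes and 24.0% of all windows, and CCAAT in 14, 17 and 34.6%. The 18 genes with a CHR word had a median 12 h difference of -0.15, and the 13 without one -0.21. With and without an E2F word the medians were -0.19 (13 genes) and -0.15 (18 genes), and the ranges of the differences overlapped in both pairs.

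Of the regulators, CCND2 was higher on both co-culture arrays. It had 6.31 log2 at 24 h and 6.35 at 12 h, against 5.44 with Pam3CSK4, and 5.57 in resting cells. The differences were 0.87 at 24 h and 0.91 at 12 h, both at least 1.5-fold, and they share the Pam3CSK4 array. CCND2 was the only one of the 40 past 1.5-fold in either comparison, beside 0.164% of all genes higher at 24 h and 1.9% at 12 h. It passed the filter through these co-culture arrays alone, so the filter helped to set this count and 1 of 40 is no excess shown. At 24 h 1 of 13410 genes was at least 1.5-fold lower, or 0.00746%, and at 12 h 2.86% were; none of the 40 was among them. The Pam3CSK4 value was under the filter, where RMA compresses differences. The other 3 probe sets of CCND2 were under the filter on every array and differed by -0.05, 0.22 and 0.64 at 24 h, and by -0.04, 0.21 and 0.29 at 12 h. Among the other regulators, the probe set named for CDKN2A, which encodes the CDK inhibitor p16 and the p53 activator ARF, followed the same course. It had 7.46 at 24 h and 7.46 at 12 h, against 6.66 with Pam3CSK4, and 6.50 in resting cells, both near the filter. This was the 1 probe set of the gene above the filter, of a kind (suffix _x_at) that can bind other transcripts. Whether it read CDKN2A was not tested. Beside these genes, 8 of 10 measured megakaryocyte and platelet markers and 5 of 6 measured erythroid markers were above the Pam3CSK4 array at each time, beside 47.5% of all genes at 24 h and 41.1% at 12 h. Most of them were near the filter, and the median 12 h difference of all genes with a mean level from 6 to 7 was 0.05. Megakaryocyte and platelet markers had medians of 0.13 at 24 h and 0.35 at 12 h, with none at least 1.5-fold higher, and erythroid markers 0.05 and 0.28. HBE1, an embryonic globin, had 7.50 at 24 h and 6.30 at 12 h, against 5.45 with Pam3CSK4, which is under the filter, so it passed through the co-culture arrays alone. CA1, a carbonic anhydrase of red cells, differed by 0.29 at 24 h and 0.83 at 12 h, and NFE2, a factor of megakaryocytes, by -0.11 and -0.92. The part of RNA brought in with the particles in these differences was not tested.

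The remaining regulators differed less at 12 h, with CCND3 at -0.35, CDKN1B at -0.24, CCND1 at 0.20 and CDKN1A at 0.18. Of 44 measured further replication genes, 31 were below 0 at 12 h, beside 58.7% of all genes and 69.3% of genes of high level. At 1.5-fold, 3 of the 44 were lower and 1 higher, beside 2.86% and 1.9% of all genes. The 3 lower were RFC3, a subunit of the clamp loader for PCNA, with 9.29 against 9.95, RPA2, which coats single-stranded DNA, with 9.31 against 9.97, and GINS2 of the helicase complex, with 9.34 against 9.96. RFC3 and GINS2 had probe sets of the opposite sign, at 0.25 and 0.19. The higher one was POLA1, the catalytic subunit of DNA polymerase alpha, with 9.31 at 12 h, against 8.72 with Pam3CSK4. Of 51 further mitotic genes, 39 were below 0, with a median of -0.16, and the checkpoint gene MAD2L1 had the lowest difference, -0.58, just under 1.5-fold.

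MYC, a transcription factor that drives growth and division, had 9.05 at 12 h, against 10.01 with Pam3CSK4, and 9.69 at 24 h and 10.49 in resting cells. Its difference of -0.96 at 12 h was close to 2-fold. MXD1 had 8.16 at 12 h, against 7.35 with Pam3CSK4, so that MYC was lowest and its antagonist MXD1 highest on the same array. MXI1, another partner of MAX that opposes MYC, went the way of MYC instead. Its lowest value was also at 12 h, 8.60, against 9.29 with Pam3CSK4. CCNA1 had 6.24 at 12 h, against 6.91, and the apoptosis gene PMAIP1, a p53 target, had 8.90, against 9.91, with -0.25 on its other probe set. The GAPDH gap was 0.92 at 12 h and 0.59 with Pam3CSK4, and its part in these differences was not tested. Time in Pam3CSK4 and time with the particles cannot be told apart here.

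After 24 h with the particles, replication genes were mostly a little lower than with Pam3CSK4 alone, while mitotic genes were balanced; this difference between the groups of genes was not tested. Replication genes were below 0 in 13 of 15 cases, beside 52.1% of all genes and 49.2% of genes of high level. Their median was -0.12, against -0.01 for all genes. With cyclic loess 13 of 15 were below 0 too, beside 50.6% of all genes under that scaling. Mitotic genes were below 0 in 10 of 20 cases, with a median of -0.0024, whose sign turned with cyclic loess. No gene of the 40 was 2-fold different, beside 0.0298% of all genes higher and 0% lower. CDC45 had 9.29 at 24 h, against 9.54 with Pam3CSK4, and MCM3 12.04, against 12.29. Among the MCM genes differences ran from -0.25 for MCM3 to -0.07 for MCM4. CCNE1 stood at -0.19, CDC6 at -0.17, E2F1 at -0.12 and TYMS at -0.12. PCNA (0.02), TK1 (0.02) and RRM2 (-0.01), which had the lowest and the highest differences at 12 h, were near 0. Of 44 further replication genes 28 were below 0, with a median of -0.05, and 22 of 51 further mitotic genes, with a median of 0.02. CDKN2A, given above with the limits of its probe set, was the only gene of the further cell cycle lists that differed by 1.5-fold at 24 h.

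Among mitotic genes 4 led on the higher side, CCNA2, HMMR, KIF11 and CDK1. CCNA2 had 11.31 at 24 h, against 11.05 with Pam3CSK4, HMMR 12.47 at 24 h, against 12.25, and KIF11 9.32, against 9.12. CDK1 differed by 0.17 on its leading probe set, and by 0.03 and -0.10 on the others. The other probe set of CCNA2 differed by 0.03 and that of HMMR by 0.13. TPX2 (-0.18), CENPF (-0.13) and PLK1 (-0.13) were lowest among mitotic genes, although another probe set of CENPF differed by 0.13. Among regulators CDKN1B had 10.36, against 10.19, CCND3 11.28, against 11.55, and CDKN1A 9.94, against 10.01. For scale, the SD of the differences over the probe sets of 1 gene had a median of 0.09 over the 24 genes with several.

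Set directly against each other, the array of 24 h was above that of 12 h for 18 of 20 mitotic genes, beside 57.7% of all genes and 68.6% of genes of high level, and for 10 of 20 with cyclic loess, beside 49.7% of all genes under that scaling. This comparison rests on the same 12 h array as that of 12 h with Pam3CSK4, so it is no second observation of the low values there. No gene of the 40 differed by 1.5-fold, beside 3.14% of all genes higher and 1.38% lower, and 0.343% and 0.224% at 2-fold. The mitotic median was 0.12, against 0.04 for all genes and 0.10 for genes of high level. Above those sat CDK1 at 0.47, CCNB1 at 0.47, HMMR at 0.40, KIF11 at 0.39, CCNB2 at 0.36, CCNA2 at 0.35, AURKA at 0.34 and BUB1 at 0.34. With cyclic loess these 8 genes were from 0.23 to 0.36 higher at 24 h. All these values are of leading probe sets. Other probe sets near the filter had the opposite sign for CCNB2 (-0.08) and AURKA (-0.14). Those of CCNB1 (0.63), HMMR (0.48) and CCNA2 (0.32), and a further one of AURKA (0.23), had the same sign. The other 12 mitotic genes lay between -0.08 and 0.17, and 8 of them (AURKB, BIRC5, BUB1B, CDC20, NUSAP1, PLK1, TPX2 and UBE2C) were above 0 here and below it with cyclic loess. Replication genes were above 0 in 9 of 15 cases, led by PCNA at 0.44, with RRM2 at -0.27 and TK1 at -0.27 at the other end. CDK1 had 11.15 at 24 h, against 10.69 at 12 h, on its leading probe set, while its others differed by 0.02 and 0.05. CDKN1B had 10.36 at 24 h, against 9.95 at 12 h, and CDKN1A 9.94, against 10.19. Among further genes, MAD2L1 had 12.21 at 24 h, against 11.48 at 12 h, RFC3 9.98, against 9.29, RPA2 9.98, against 9.31, and POLA1 8.65, against 9.31. MYC was higher at 24 h, by 0.64, as were RBL1, a relative of RB, by 0.65 on its leading probe set, CCNA1 by 0.85 and PMAIP1 by 0.92.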

How the data were processed

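Biotin-labelled RNA of 4 THP-1 cultures was read on 1 Affymetrix array each. Per the submitters' processing notes, the authors made the deposited log2 values with RMA in affy 1.28.1. A genome build and detection calls are not given in the sources used here. The 4 value columns were matched to arrays by label, with 0 columns unmapped. Groups came from the source labels, and the hours from the descriptions, since the titles of the co-culture arrays carry other numbers.

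Probe sets were named from the platform annotation: of 54675, 41091 name 1 gene and 1801 several, and 62 are controls. One gene took its probe set of highest mean, and genes with any array at 6.19 or above, the median over all values, were kept. Differences are those of log2 values. With 1 array per condition there is no test, and a gene was called where it was at least 2-fold or 1.5-fold. The number of arrays limits the precision. The members and all gene lists were chosen with earlier results of these data known. All 40 members could be named. From the other cell cycle lists (further replication and mitotic genes, E2F and RB genes, CDKs and cyclins, p53 targets) up to 3 genes per direction past 1.5-fold were named. Monocyte, megakaryocyte and platelet, and erythroid markers were counted, and those named were chosen after their values were seen. POLD2, MAD2L1 and SKP2 probe set values, and the genes defining platelets, were added for context. Promoter windows are from RefSeq.

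The alternatives were cyclic loess (limma 3.58.1 in R 4.3.3, 3 iterations), other probe set rules, other filters and folds. Differences relative to the median of genes of high level, and the counts of signs, were added after the data were seen. Calculations used pandas 2.3.3, numpy 2.4.6 and matplotlib 3.10.9 in Python 3.11.15 and were tested on simulated data.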

Additional observations from a re-analysis of the deposited data

Results flagged for a closer look

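Of the 40 genes, 4 lay on opposite sides of the Pam3CSK4 array at the 2 times of co-culture. Each time they did so by more than the median SD of differences over the probe sets of a gene (0.09 at 24 h and 0.125 at 12 h). The share of all genes that meet this rule was not counted, so 4 of 40 cannot be called an excess. Among genes with a mean level of at least 10, 49.2% were below 0 at 24 h and 69.3% at 12 h. CDK1 differed by 0.172 at 24 h and by -0.295 at 12 h, on its leading probe set, while the others had 1 sign each at both times (0.03 and 0.01, and -0.10 and -0.15). HMMR differed by 0.216 at 24 h and by -0.188 at 12 h, and its other probe set had the same signs. KIF11, with 1 probe set, differed by 0.203 at 24 h and by -0.189 at 12 h. CDKN1B differed by 0.175 at 24 h and by -0.241 at 12 h. With cyclic loess the 12 h differences of HMMR and KIF11 were -0.08 and -0.10, under that SD, while CDK1 at -0.19 and CDKN1B at -0.13 were past it. Both differences of a gene share the 1 Pam3CSK4 array, and the difference between the times was not tested.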

How the results depend on the processing

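The members' fold counts, medians and counts of signs were recomputed with no filter on level, a stricter filter (75th percentile), the mean over each gene's probe sets, no probe sets of the suffixes _x_at and _s_at, and cyclic loess. Medians and signs were also taken relative to genes of high level, fold counts at other folds, and the CDKN1A difference with the mean of probe sets and with cyclic loess. Counts of the further lists were not recomputed. Of 154 such values, 143 stayed within 1.5 times the count or within the median SD over a gene's probe sets, and 11 moved. The mitotic median at 24 h against Pam3CSK4, near 0, was from 0.001 to 0.049 with cyclic loess, the stricter filter and both other probe set rules. No other median changed sign. Pam3CSK4 against resting cells, 0 members were at least 2-fold higher without those suffixes, since CDKN1A then has no probe set, and 0 were at least 3-fold higher. At 1.5-fold, 1 member was higher in 24 h co-culture against Pam3CSK4 and 1 in 12 h co-culture, CCND2 both times. At 24 h against Pam3CSK4, 6 mitotic genes were below 0 without those suffixes, of 16 measured. At 24 h against 12 h, the replication median of 0.118 was 0.014 with the mean of probe sets, 0.017 relative to genes of high level, 0.021 with cyclic loess and 0.02 without those suffixes. The mitotic median of 0.121 was 0.02 with cyclic loess and 0.021 relative to genes of high level, with 10 of 20 above 0 in each. No paired analysis was possible because each condition is 1 array. With no second culture, none of these values has a replicate error, and differences near the filter are compressed by background.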

Other observations

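Among the further mitotic genes, MAD2L1, a spindle checkpoint protein, ranged over its 3 probe sets from -0.18 to 1.21 for Pam3CSK4 minus resting. For the death receptor gene TNFRSF10B all 3 probe sets were higher with Pam3CSK4 than in resting cells, by 0.61 to 1.40. MXD1, the partner of MAX that opposes MYC, was higher on both of its probe sets with Pam3CSK4 than in resting cells, by 0.88 and 1.05, and higher again at 12 h than with Pam3CSK4, by 0.81 and 0.97. These comparisons share the Pam3CSK4 array.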
